A study of Homo sapiens with 6 samples.

Results

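The core components of the major spliceosome are encoded by 59 genes in the set described here. They were chosen by name and no measured value entered the rule, but earlier results of these data were known. The set covers proteins of the U1, U2 and U4/U6.U5 small nuclear ribonucleoproteins (snRNPs) and the Sm ring they share. It also covers the PRP19 complex (NTC) and the factors of the catalytic steps. All 59 were found by symbol among the 58780 human gene IDs of the deposited tables, and all 59 were among the 19725 genes with enough reads to be tested. They were divided into 9 subcomplexes.

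The major spliceosome removes introns from pre-mRNA. U1 binds the 5′ splice site, SF1 and the U2AF heterodimer mark the branch point and the 3′ splice site, and U2 then pairs with the branch point. The tri-snRNP of U4/U6 and U5 joins, U1 and U4 leave, the NTC binds, and DEAH-box helicases drive the complex through its catalytic steps and its release. Many of these proteins are found in nuclear speckles, the bodies named in the title of the series.

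RNA-seq was run on HCT116, an established human colorectal carcinoma line, in 6 libraries: 3 biological replicates given auxin for 16 h and 3 given DMSO alone as the control. Auxin, a plant hormone, is commonly used on cells to remove a chosen protein fused to an auxin-inducible degron. The labels give no genotype beyond the treatment in either group, and they name neither a tagged protein, nor a ubiquitin ligase transgene, nor a clone. No gene could therefore be singled out as the target, and RNA levels do not measure the loss of a protein.

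Library totals ran from 234037969 to 625895062 estimated reads, and replicate 1 was the deepest library of both groups. The epithelial markers EPCAM, CDH1, KRT8, KRT18, KRT19 and ELF3 were present in all 6 libraries, with EPCAM at 213 to 298 TPM, an abundance scaled by transcript length. CLDN7 was at 74.7 to 90.6 TPM in DMSO and at 5.44 to 7.06 TPM in auxin. The blood markers PTPRC and CD3E were at 0, COL1A2, PECAM1 and ALB reached at most 0.11 TPM, and COL1A1 lay between 0.54 and 2.61 TPM.

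After auxin, the spliceosome genes split in both directions, and the decreases were the larger ones. Of the 59 genes, 15 were called higher (25.4%) and 18 lower (30.5%) by edgeR's quasi-likelihood test, at a threshold of 0.05 on the Benjamini-Hochberg adjusted p. The same rule called 25.4% of all genes tested higher and 26.9% lower. The median log2 fold change was 0.03 over the 59 genes and 0.02 over all genes tested. None of the 59 rose by 2-fold or more, against 6.55% of all genes. Those that fell by 2-fold or more were XAB2, SART1, PRPF31, DDX23, U2AF2, SF3B2 and SNRNP200, which is 7 of 59, against 13.3% of all genes. In 34 of the 59 the 3 auxin libraries did not overlap the 3 DMSO libraries, as was so for 60.3% of all genes.

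**Figure D1:**
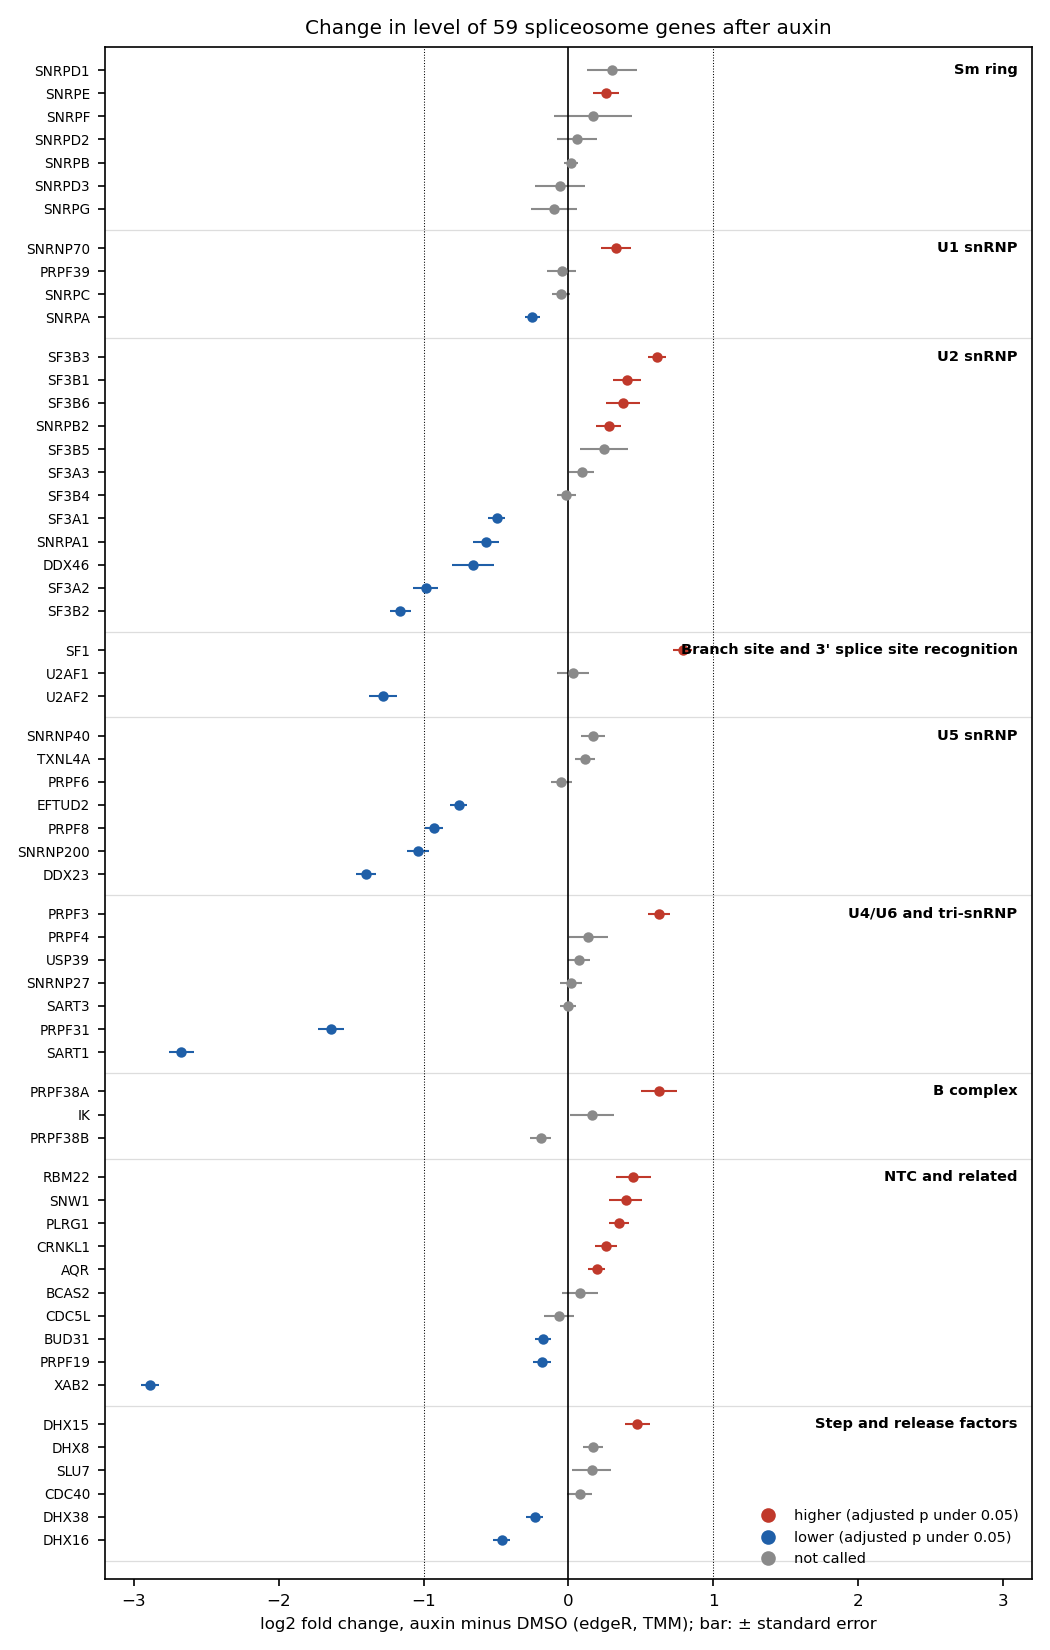
Log2 fold change of each of the 59 genes (horizontal axis, auxin minus DMSO, bars show the standard error, 3 libraries per group), grouped by subcomplex. Decreases reach -2.88 (XAB2) and increases reach 0.79 (SF1); the dotted lines mark a 2-fold change.

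The calls that held differed between ways of processing the data. SNRPA1, SF3B2, DDX46, PRPF8, EFTUD2, DDX23, PRPF31, SART1 and XAB2 were called lower in the analysis above and in all 18 alternatives. No gene was called higher in all 18: a test on log2(TPM + 1) called 0 higher and 11 lower. That scale moved the median of all genes by -0.14 (log2) and called 970 of all genes higher and 2966 lower. Outside the 2 TPM alternatives, SF3B1, SF3B3, SF1, PRPF3, PRPF38A, PLRG1 and DHX15 were called higher in the other 16. With the replicate number as a block, 26 were higher and 19 lower. DESeq2 called 11 higher and 16 lower, all among the calls above, and did not call SNRPE, SNRPB2, CRNKL1, AQR, PRPF19 or BUD31. Upper-quartile scaling, which moved the median of all genes by 0.12 (log2), gave 22 and 14 and kept all 15 higher calls and 14 of the 18 lower ones. Of the 15 higher calls, 8 were kept without DMSO replicate 1, and 7 without DMSO replicate 2, auxin replicate 2 or auxin replicate 3.

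In 6 of the 9 subcomplexes, genes were called in both directions, as the plot of log2 fold changes shows. Levels by subcomplex are CPM, read counts scaled to a common library size with TMM factors, in the order replicate 1, 2 and 3. The libraries hold RNA from bulk cultures, in which fewer cells of a type and less RNA per cell cannot be told apart.

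The Sm proteins form the heptameric ring around the snRNAs of U1, U2, U4 and U5. Of the 7 ring genes, SNRPE rose, by 0.26 ± 0.09 (log2, SE, adjusted p = 0.0486, edgeR), and the other 6 were not called. SNRPE had an adjusted p of 0.0572 to 0.158 when DMSO replicate 1, 2 or 3 or auxin replicate 2 or 3 was left out. SNRPD1, at the upper end of the ring, stood at 113, 152 and 166 CPM in DMSO and at 143, 195 and 194 CPM in auxin. It was higher in auxin in each of the 3 same-numbered pairs, but the groups overlapped, at 0.30 ± 0.17 (adjusted p = 0.183, edgeR); with the replicate block, edgeR gave an adjusted p of 6.71e-05. SNRPG, at the lower end, stood at 30.5, 43.1 and 45.5 CPM in DMSO and at 32.7, 38.7 and 39.8 CPM in auxin. Those ranges overlapped too (log2 fold change -0.10 ± 0.16), and the sign of the SNRPG value turned with upper-quartile scaling (0.02). Of the ring, SNRPF also passed the test with the block, at 0.18 ± 0.04 (edgeR adjusted p = 0.00534).

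Of the 4 U1 genes, SNRNP70 rose, SNRPA fell, and SNRPC and PRPF39 were not called. SNRNP70 encodes U1-70K, which contacts stem loop I of U1 snRNA. It stood at 62.8, 70.5 and 78.4 CPM in DMSO and at 80.2, 88.6 and 97.2 CPM in auxin, with no overlap between groups (0.33 ± 0.10, adjusted p = 0.0304, edgeR). It was not called without DMSO replicate 1 (adjusted p = 0.0801, edgeR), DMSO replicate 2 (0.0936), auxin replicate 2 (0.0787) or auxin replicate 3 (0.106). SNRPA encodes the A protein of U1, which binds stem loop II. It stood at 85.3, 81.5 and 81.6 CPM in DMSO and at 71.4, 66.7 and 70.9 CPM in auxin, lower in every auxin library (-0.25 ± 0.05, adjusted p = 0.00623, edgeR). After offsets for GC content the SNRPA value was 0.14 (adjusted p = 0.114, edgeR), so its direction rests on the treatment of GC content.

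The 12 genes of the U2 snRNP moved in both directions: 4 rose, 5 fell and 3 were not called. Within the SF3b part, which clamps the branch point helix, SF3B1, SF3B3 and SF3B6 rose by 0.41, 0.61 and 0.38 while SF3B2 fell by 1.16 on the log2 scale. SF3B3 stood at 327, 326 and 347 CPM in DMSO and at 485, 511 and 533 CPM in auxin (0.61 ± 0.06, adjusted p = 2.24e-04, edgeR). All 3 auxin libraries lay above all 3 DMSO libraries. SF3B2 (ENSG00000087365.15, chr11:66050729-66069308, + strand, GRCh38) stood at 234.5, 243.7 and 259.7 CPM in DMSO and at 102, 110 and 118 CPM in auxin (-1.16 ± 0.07, adjusted p = 2.45e-05, edgeR). It was thus lower in every auxin library, by 2.23-fold. In the SF3a part, SF3A1 fell by 0.50 and SF3A2 by 0.99, and SF3A3 was not called (0.09 ± 0.09). SF3A2 was no longer called after GC offsets (-0.03, adjusted p = 0.778, edgeR). The U2 A′ and B″ proteins also differed in sign, with SNRPA1 at -0.57 and SNRPB2 at 0.28. SNRPB2 and SF3B6 were not called without DMSO replicate 1 (edgeR adjusted p = 0.0835 and 0.0764), DMSO replicate 2 (0.0901 and 0.0631), auxin replicate 2 (0.0853 and 0.0998) or auxin replicate 3 (0.0991 and 0.111). DDX46, the helicase also called PRP5, fell by 0.66. With the replicate block, SF3A3 and SF3B5 passed the edgeR test too, at 0.09 (adjusted p = 0.0352) and 0.25 (adjusted p = 2.08e-04). After GC offsets SF3A3 stood at -0.12 and SF3B5 at 0.59.

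The branch site and 3′ splice site recognition genes moved apart. SF1, the branch point binding protein, had the largest increase of the 59 genes, and U2AF2, which binds the polypyrimidine tract beside it, fell by more than 2-fold. SF1 (ENSG00000168066.20, chr11:64764606-64778786, - strand) stood at 319, 292 and 324 CPM in DMSO and at 535, 534 and 548 CPM in auxin (0.79 ± 0.06, adjusted p = 6.66e-05, edgeR). U2AF2 (ENSG00000063244.12, chr19:55654146-55674715, + strand) stood at 204, 212 and 227 CPM in DMSO and at 79.2, 85.4 and 99.96 CPM in auxin (-1.28 ± 0.10, adjusted p = 4.80e-05, edgeR). Neither gene's groups overlapped. U2AF2 was not called after GC offsets (-0.41, adjusted p = 0.0867, edgeR) but was called with offsets and block together (-0.42, edgeR adjusted p = 5.85e-07), and SF1 reached 1.20 after offsets. U2AF1, the small subunit that reads the AG of the 3′ splice site, stood at 0.03 ± 0.11, and at -0.18 after GC offsets. Its reads are shared with the near-identical entry U2AF1L5, and the sum of both entries stood at 0.02 ± 0.08.

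In the U5 snRNP, 4 of 7 genes fell and none rose. PRPF8, the scaffold of the active site, fell by 0.93 and the GTPase EFTUD2 by 0.76. SNRNP200, the helicase BRR2 that unwinds U4 from U6, stood at 515, 456 and 472 CPM in DMSO and at 251, 222 and 231 CPM in auxin (-1.04 ± 0.08, adjusted p = 4.48e-05, edgeR; ENSG00000144028.14, chr2:96274336-96305515, - strand). DDX23, the helicase PRP28 that releases U1 from the 5′ splice site, stood at 67.4, 73.6 and 78.6 CPM in DMSO and at 27.0, 27.6 and 28.8 CPM in auxin (-1.40 ± 0.07, adjusted p = 9.69e-06, edgeR; ENSG00000174243.9, chr12:48829764-48852842, - strand). Both helicase genes were lower in every auxin library. SNRNP40, the U5 40K protein, stood at 76.5, 84.2 and 89.6 CPM in DMSO and at 86.0, 96.2 and 98.8 CPM in auxin. Its groups overlapped (0.17 ± 0.08, adjusted p = 0.127, edgeR); with the block it passed the edgeR test (adjusted p = 6.29e-04), as did TXNL4A (0.12, adjusted p = 0.0109), and after GC offsets its value was -0.02. PRPF6, the bridge between U5 and U4/U6, was not called (-0.05 ± 0.07), and stood at 0.36 after GC offsets (adjusted p = 0.0342, edgeR).

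Of the 7 U4/U6 and tri-snRNP genes, PRPF3 rose, PRPF31 and SART1 fell, and the other 4 were not called. PRPF3 and PRPF31 both encode U4/U6 proteins in which variants cause retinitis pigmentosa, and they moved apart. PRPF3 stood at 59.3, 63.4 and 68.0 CPM in DMSO and at 90.6, 99.96 and 104 CPM in auxin (0.63 ± 0.08, adjusted p = 4.34e-04, edgeR). PRPF31 (ENSG00000105618.13, chr19:54115410-54131719, + strand) stood at 26.1, 29.5 and 32.0 CPM in DMSO and at 9.48, 9.11 and 9.58 CPM in auxin (-1.64 ± 0.09, adjusted p = 1.25e-05, edgeR). SART1, the tri-snRNP protein SNU66, stood at 28.8, 31.0 and 32.8 CPM in DMSO and at 4.88, 4.498 and 5.16 CPM in auxin (-2.67 ± 0.09, adjusted p = 2.17e-06, edgeR; ENSG00000175467.14, chr11:65961689-65979828, + strand). No library of one group reached the range of the other for these 3 genes, and SART1 was 6.37-fold lower. PRPF4, which pairs with PRPF3 in the particle, stood at 0.14 ± 0.13 and passed the edgeR test with the block only (adjusted p = 0.00473).

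Of the 3 B complex genes, PRPF38A rose and the related PRPF38B and IK were not called. PRPF38A stood at 59.8, 71.3 and 76.2 CPM in DMSO and at 90.9, 112 and 117 CPM in auxin (0.63 ± 0.12, adjusted p = 0.00439, edgeR). PRPF38B stood at 29.2, 29.7 and 30.9 CPM in DMSO and at 28.5, 25.4 and 24.8 CPM in auxin. Its ranges did not overlap, at -0.19 ± 0.07 (adjusted p = 0.0625, edgeR); with the block it was called lower (edgeR adjusted p = 0.0138) and IK higher (0.17, adjusted p = 0.00116).

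The NTC and related proteins, which remodel the complex for catalysis, had 5 increases, 3 decreases and 2 genes not called. XAB2, the SYF1 scaffold protein, had the largest decrease of the 59 genes. It stood at 70.4, 68.2 and 71.7 CPM in DMSO and at 9.92, 9.07 and 9.49 CPM in auxin (-2.88 ± 0.06, adjusted p = 1.39e-06, edgeR; ENSG00000076924.11, chr19:7619525-7629565, - strand). This is a 7.38-fold difference, with the lowest DMSO library far above the highest auxin library. CRNKL1 and AQR, which encode proteins known to contact XAB2, rose by 0.26 and 0.19. RBM22, which binds the U6 snRNA near the active site, stood at 101, 117 and 124 CPM in DMSO and at 132, 164 and 171 CPM in auxin (0.45 ± 0.12, adjusted p = 0.0168, edgeR). RBM22 was not called without DMSO replicate 2 (adjusted p = 0.0522, edgeR), auxin replicate 2 (0.0592) or auxin replicate 3 (0.0624). SNW1 and PLRG1 rose by 0.40 and 0.35. PRPF19, the ubiquitin ligase that names the complex, and BUD31 fell by 0.18 and 0.17; CDC5L and BCAS2 were not called, and BCAS2 passed with the block (0.08, edgeR adjusted p = 0.0222). CRNKL1, AQR, SNW1, PRPF19 and BUD31 lost their call when single libraries were left out. Without auxin replicate 2, edgeR's adjusted p was 0.0835 for CRNKL1, 0.0801 for AQR, 0.0771 for SNW1, 0.160 for PRPF19 and 0.0973 for BUD31. Without DMSO replicate 1 it was 0.0672, 0.0787, 0.0526, 0.0968 and 0.0662 in the same order. CRNKL1, AQR and SNW1 were also not called by edgeR without DMSO replicate 2 (adjusted p = 0.0668, 0.129 and 0.0593) or auxin replicate 3 (0.0789, 0.0961 and 0.0798), nor AQR without DMSO replicate 3 (0.0757). PRPF19 and BUD31 were also not called by edgeR without DMSO replicate 3 (adjusted p = 0.151 and 0.111) or auxin replicate 1 (0.116 and 0.0772), nor PRPF19 without DMSO replicate 2 (0.0613) and BUD31 without auxin replicate 3 (0.0638). AQR was at -0.07 on the log2(TPM + 1) scale.

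Among the 6 step and release factors, DHX15 rose, DHX16 and DHX38 fell and 3 were not called. DHX15, the helicase PRP43 that takes the spent spliceosome apart, stood at 475, 518 and 529 CPM in DMSO and at 632, 727 and 758 CPM in auxin (0.48 ± 0.09, adjusted p = 0.00322, edgeR). DHX16, the helicase PRP2 that prepares the first step, stood at 72.0, 72.7 and 76.0 CPM in DMSO and at 50.8, 52.8 and 56.7 CPM in auxin (-0.46 ± 0.06, adjusted p = 5.85e-04, edgeR). The groups did not overlap for either gene. DHX38, the helicase PRP16 of the second step, fell by 0.23, but stood at 0.00 after GC offsets, and was not called without auxin replicate 2 (edgeR adjusted p = 0.0527) or auxin replicate 3 (0.0541). DHX8 and SLU7 were not called without the block and were called with it (0.17 and 0.17, edgeR adjusted p = 6.22e-04 and 0.00225), and CDC40 was not called.

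**Figure D2:**
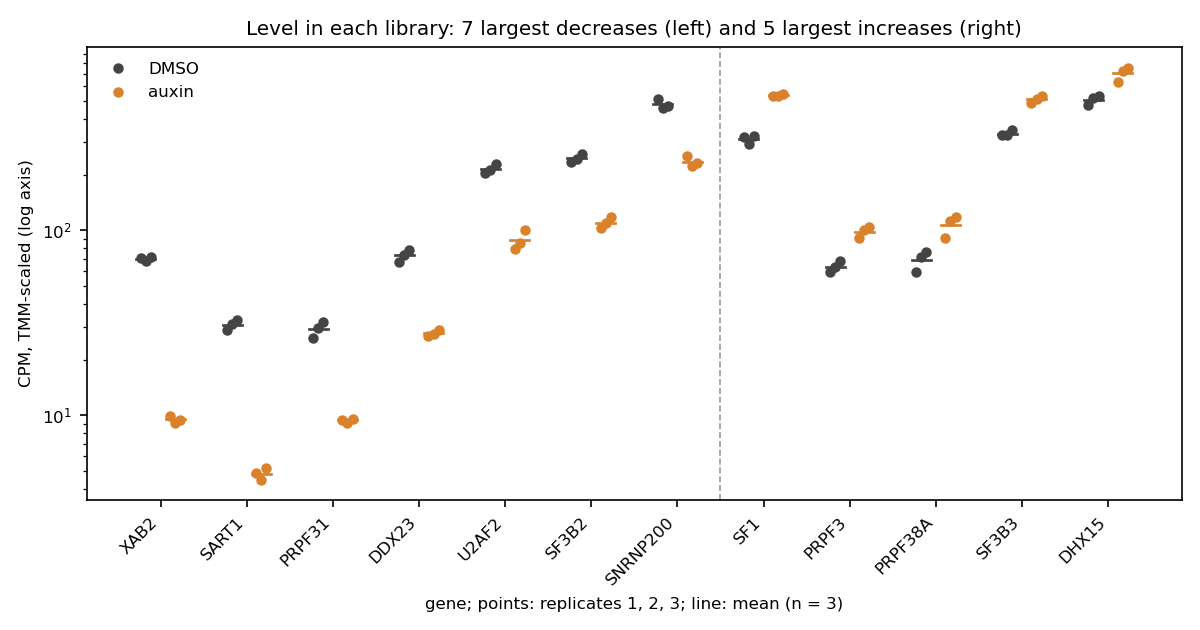
CPM in each library (vertical log axis) of the 7 genes that fell by 2-fold or more and of the 5 with the largest increases; points are replicates 1, 2 and 3 and lines are means. No auxin point overlaps the DMSO points of its gene, and SART1 falls from 28.8 to 32.8 CPM to 4.498 to 5.16 CPM.

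On the length-scaled TPM, where genes can be compared, the 59 genes spanned a wide range. In DMSO the mean TPM ran from 6.58 for PRPF39 to 254 for SF3B3, with a median of 64.7 over the genes. In auxin it ran from 3.31 for XAB2 to 297 for SF3B3, with a median of 49.2. The 2 medians do not measure a change of the set, whose median log2 fold change was 0.03 in the edgeR fit. On log2(TPM + 1) the median of all genes also moved, by -0.14. All 3 libraries of both groups held more than 10 TPM of 53 of the 59 genes. These values count all transcripts of a gene. In SF3B3, transcripts not annotated as protein coding held 143 TPM in DMSO and 158 in auxin, and coding ones 111 and 139. Coding TPM was higher in SF3B1, at 207 and 247, and in DHX15, at 174 and 216.

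**Figure D3:**
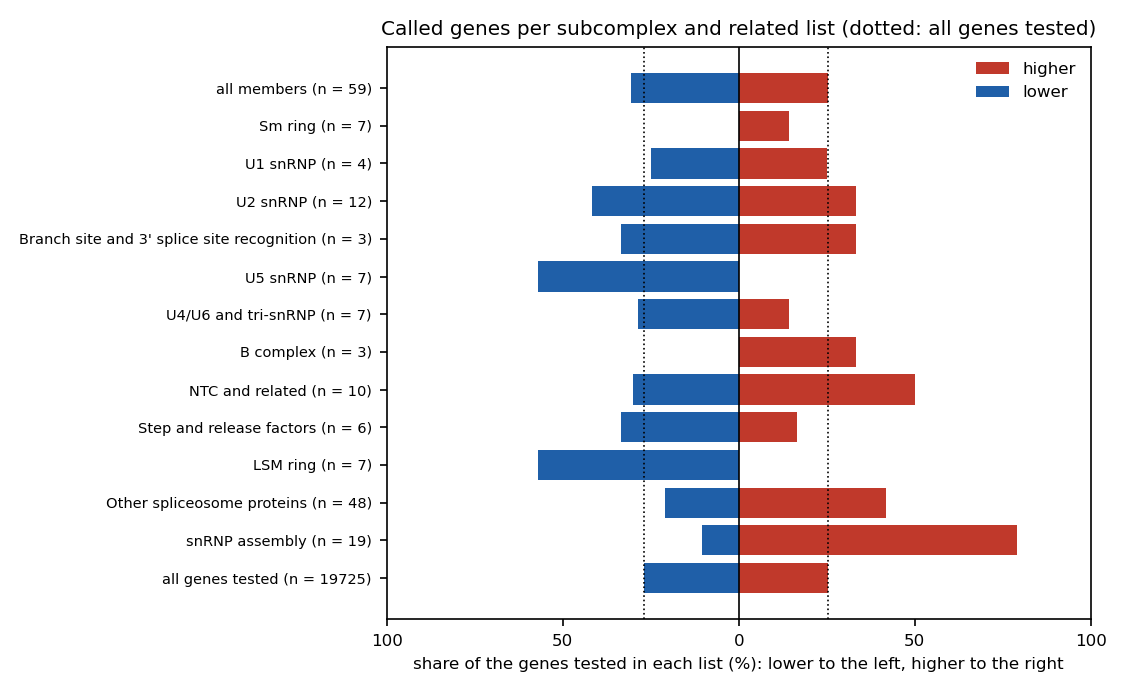
Share of the tested genes of each subcomplex and related list called lower (left) or higher (right) after auxin, in percent; dotted lines mark all genes tested. The U5 snRNP and the LSM ring have lower calls only (4 of 7 each), and the snRNP assembly list has 15 of 19 genes higher.

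Other genes of the pathway were read from the same fit. The LSM ring, which caps the U6 snRNA, had 4 of 7 genes lower and none higher, from LSM4 at -1.06 ± 0.09 to LSM5 at -0.18 ± 0.06 among those called, with a median of -0.31. A list of 48 other spliceosome proteins had 20 higher, 10 lower and a median of 0.17. Its extremes were the kinase PRPF4B at 0.88 ± 0.09 and the U-box cyclophilin PPIL2 at -3.10 ± 0.10. PPIL2 stood at 37.0, 34.9 and 35.6 CPM in DMSO and at 4.74, 3.85 and 3.96 CPM in auxin. The snRNP assembly list, which holds the SMN complex and the import and methylation factors, had 15 of 19 genes higher and 2 lower, with a median of 0.44. The 15 include the near-identical entries SMN1 and SMN2, at 0.35 and 0.34. GEMIN5, which recognises snRNAs for the SMN complex, stood at 0.96 ± 0.08, and WDR77, a partner of the methyltransferase PRMT5, at -1.35 ± 0.08. The shares in the plot of calls by subcomplex are descriptions of each list beside the 25.4% and 26.9% of all genes.

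Transcript tables were used to ask whether the isoforms of the spliceosome genes changed in proportion. A transcript's share is its part of the gene's TPM. It was tested with limma in the 47 genes that had at least 2 transcripts above 5% in either group, and a change of 5 percentage points was required. Of these 47 genes, 6 had a changed transcript: PRPF19, PRPF8, SF1, U2AF2, DHX38 and USP39. The same rule called 21% of the genes tested. The 6 became 2 or 3 when any 1 library was left out, and PRPF19 and SF1 were in all 6 of those sets.

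The joined exon ends below show where a transcript differs from a chosen transcript of the same gene at an exon or splice site. The transcripts compared can differ elsewhere too. Whether further transcripts of the gene hold the same joined ends was not tested. The bases below are reference sequence of GRCh38 read at GENCODE 29 coordinates, 5′ to 3′ on the strand of the gene. Each shows 25 bases of the upstream exon in lower case and 25 bases of the downstream exon in capitals, and all are coding bases.

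PRPF19-201, exon 13 to 14: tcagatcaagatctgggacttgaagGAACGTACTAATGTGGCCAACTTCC
PRPF19-201, exon 14 to 15: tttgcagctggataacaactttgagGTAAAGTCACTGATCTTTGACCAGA
PRPF19-202, exon 14 skipped: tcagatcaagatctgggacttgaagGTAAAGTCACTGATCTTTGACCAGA
PRPF8-209, exon 26 skipped: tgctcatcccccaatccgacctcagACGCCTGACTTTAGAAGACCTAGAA
SF1-204, proximal last exon: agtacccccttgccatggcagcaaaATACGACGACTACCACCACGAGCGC
SF1-201, distal last exon: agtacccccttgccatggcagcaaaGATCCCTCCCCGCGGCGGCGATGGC
U2AF2-201, downstream donor: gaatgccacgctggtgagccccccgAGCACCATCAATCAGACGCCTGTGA
U2AF2-202, upstream donor: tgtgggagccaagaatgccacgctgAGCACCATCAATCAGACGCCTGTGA

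PRPF19 showed the largest gain of a transcript. PRPF19-202 held 1.49%, 2.29% and 2.201% of the gene's TPM in DMSO and 18.1%, 24.5% and 24.7% in auxin (limma adjusted p = 0.00307), and no library of one group came near the other. It is a partial transcript of 4 exons that joins exon 13 of PRPF19-201 to exon 15. The exon left out, exon 14 of 16 at chr11:60898101-60898271 (- strand), is 171 bases long, or 57 codons, and its length is a multiple of 3, so its loss keeps the reading frame. It is printed here in capitals between 10 bases of its neighbours. It is not the only difference, since PRPF19-202 has 4 exons and PRPF19-201 has 16. Reads across these junctions were not counted, so the shares are estimates for whole transcripts.

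PRPF19 exon 14: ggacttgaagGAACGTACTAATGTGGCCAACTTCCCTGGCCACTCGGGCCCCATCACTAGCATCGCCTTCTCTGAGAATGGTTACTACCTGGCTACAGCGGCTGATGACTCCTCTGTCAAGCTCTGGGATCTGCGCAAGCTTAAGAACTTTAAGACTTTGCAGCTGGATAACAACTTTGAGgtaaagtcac

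PRPF19-201, the full-length transcript, went from 96.4%, 88.9% and 92.7% to 79.9%, 72.8% and 73.1% (limma adjusted p = 0.0352). In TPM, PRPF19-202 rose from 1.77 ± 0.11 to 18.4 ± 2.5 (SD, n = 3) while PRPF19-201 stood at 85.2 ± 19.4 and 62.5 ± 9.0. The size of the change depends on the length scaling of a short transcript. As a share of expected counts, PRPF19-202 gained 7.43 points in place of 20.4 (limma adjusted p = 0.0105) and PRPF19-201 lost 6.47 in place of 17.4.

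In SF1 the shares moved between transcripts that use different acceptors for the last exon. SF1-201, which uses the distal acceptor, held 45.2%, 49.1% and 50.9% in DMSO and 62.8%, 68.2% and 68.3% in auxin (limma adjusted p = 0.0177). SF1-204, whose acceptor lies 637 bases upstream, went from 15.1%, 15.1% and 15.9% to 4.05%, 3.75% and 3.76% (limma adjusted p = 0.00286). The groups overlapped for neither transcript, and the gene as a whole rose, so SF1-204 was lower in TPM (21.1 ± 5.5 to 8.13 ± 1.73, SD, n = 3) and SF1-201 higher (81.3, 53.9 and 62.3 against 156, 124 and 136). SF1-204 was called without any 1 library, and SF1-201 was not without DMSO replicate 2 or 3 or auxin replicate 2 or 3.

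PRPF8 lost share from its main transcript while the level of the gene fell. PRPF8-201 held 81.3%, 86.5% and 86.0% in DMSO and 61.6%, 67.3% and 68.3% in auxin (limma adjusted p = 0.0165). Its loss was 18.9 points of TPM share and 11.1 points of expected count share. PRPF8-205, which keeps the 197 bases of intron 1 outside the coding part, went from 8.35%, 7.77% and 8.96% to 14.3%, 16.0% and 16.1%. PRPF8-209, a partial transcript of 6 exons that skips exon 26 (180 bases, 60 codons, chr17:1661611-1661790), went from 3.13%, 1.78% and 2.87% to 10.7%, 10.2% and 7.99%. With the block both lost their call (limma adjusted p = 0.0541 and 0.0596) and PRPF8-201 kept it (0.0262). No transcript of PRPF8 was called without DMSO replicate 2, DMSO replicate 3 or auxin replicate 2, where PRPF8-201 had a limma adjusted p of 0.0753, 0.0732 and 0.0567. In TPM, PRPF8-205 stood at 10.98 ± 2.78 and 10.7 ± 1.2 (SD, n = 3), beside a fall of PRPF8-201 from 111 ± 23 to 45.4 ± 5.5.

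Changes in the other 3 genes were smaller. U2AF2-201, whose donor lies 12 bases downstream of that of U2AF2-202, went from 40.5%, 37.6% and 38.3% to 30.4%, 28.8% and 26.5% (limma adjusted p = 0.0361; 0.0525 with the block). U2AF2-202 held 53.6% and 56.6% on average and was not called. DHX38-201 lost 13.4 points (limma adjusted p = 0.0440), of which 7.23 remained as a share of expected counts. USP39-220, which starts at another first exon, rose from 5.30% ± 1.12 to 12.03% ± 1.72 (SD, n = 3; limma adjusted p = 0.0352), with a posterior SD of its count of up to 12.5%. None of these 3 genes was called when any 1 library was left out.

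**Figure D4:**
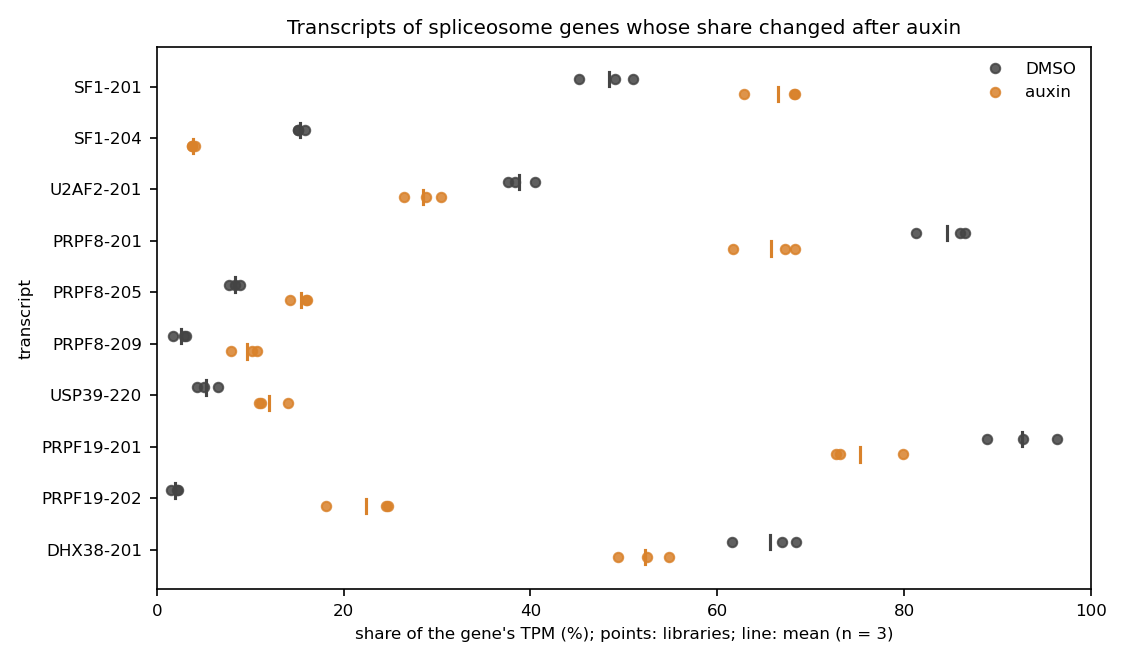
Share of the gene's TPM held by each of the 10 called transcripts (horizontal axis, percent); points are libraries and vertical lines are group means. PRPF19-202 moves from 1.49 to 2.29% in DMSO to 18.1 to 24.7% in auxin, and the groups are apart for every transcript shown.

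The share held by transcripts that GENCODE does not class as protein coding, such as those with a retained intron, was tested in 55 of the 59 genes. It rose in DDX23 and XAB2 and fell in none, where 8.41% of all genes tested rose and 1.63% fell. For DDX23 it was 9.40%, 6.83% and 6.36% in DMSO and 31.4%, 21.6% and 23.0% in auxin (limma adjusted p = 0.0163). For XAB2 it was 1.58%, 1.10% and 0.54% in DMSO and 8.63%, 5.94% and 4.46% in auxin (limma adjusted p = 0.0283). These shares rose while the coding transcripts fell: coding TPM went from 23.3 to 7.58 in DDX23 and from 28.2 to 3.097 in XAB2. Non-coding TPM stood at 2.82, 1.49 and 1.53 against 3.82, 1.90 and 2.24 in DDX23, which overlap, and at 0.32 against 0.22 on average in XAB2. SART1 had a non-coding share of 65.2% ± 6.5 in DMSO and 64.6% ± 7.5 in auxin (SD, n = 3), nearly all of it annotated as retained intron. With the block, 4 genes were called higher, with DHX38 and SF3B2 added. None was called without DMSO replicate 2 or without DMSO replicate 3, and DDX23 alone without DMSO replicate 1 or auxin replicate 2.

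Gene structure, which the choice of members did not use, differed between the genes that fell and those that rose, as it did over all genes. The most abundant coding transcript had a median GC content of 55.1% in the 18 genes that fell, 42.7% in the 15 that rose and 48.4% in the 26 not called, and of 58.9% in the 7 that fell by 2-fold or more. Over all protein-coding genes tested the medians were 56.1%, 46.6% and 47.8%. The median intron length was 597 bases in the genes that fell, 2005 in those that rose and 307 in the 7. The same medians over all protein-coding genes were 970 and 2548, and 488 for those that fell by 2-fold or more. Intron lengths were also read from the most abundant coding transcript, which can be a short one. For SF3B3, which rose, it was 334 bases long with 1 intron of 4944 bases. Across genes, which are not independent replicates and share the same 6 libraries, Spearman's rho of the log2 fold change with GC content was -0.49 over the 59 and -0.35 over 14003 genes. With median intron length it was 0.44 over 58 genes with an intron and 0.39 over 13598.

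**Figure D5:**
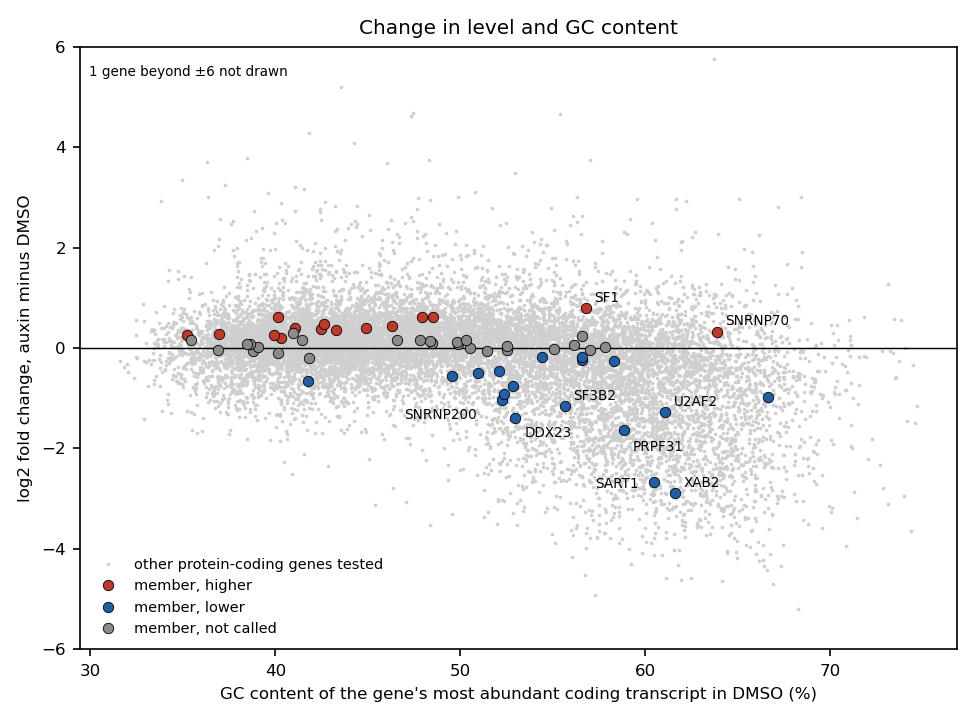
Log2 fold change (vertical axis, auxin minus DMSO) against the GC content of the most abundant coding transcript (horizontal axis, percent) for the 59 genes, over the other protein-coding genes tested in grey. The 7 genes that fell by 2-fold or more lie between 52.2 and 61.6% GC; 1 other gene beyond the axis limit of 6 is not drawn.

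The changes were recomputed after per-library offsets that level the trend with GC content. For these offsets GC content was the mean over all annotated transcripts of a gene, not that of the most abundant coding one. Then 11 genes were higher and 15 lower, with 21 of the 33 calls kept. The calls of SNRPA, SF3A2, U2AF2 and DHX38 ended, as given above, and so did those of SNRPE, SNRPB2, SF3B6, CRNKL1, AQR, SNW1, RBM22 and PRPF19 (edgeR adjusted p = 0.0711 to 0.535). Newly called were SNRPB (0.58), SF3B5 (0.59), PRPF6 (0.36), SART3 (-0.17) and PRPF38B (-0.34). Of the genes that gained a call with the block, PRPF4 (-0.07), IK (-0.03), BCAS2 (-0.01) and DHX8 (-0.0019) turned in sign, as did SF3A3 and SNRNP40. With the block and the offsets in 1 fit, 22 were higher and 20 lower, and 29 of the 33 calls were kept. XAB2 (-1.99), SART1 (-1.74), DDX23 (-1.38), PRPF31 (-1.18) and SNRNP200 (-1.03) remained lower by 2-fold or more. SF3B2 was at -0.73 and U2AF2 at -0.41. SF1 (1.20) and SNRNP70 (1.09) then passed 2-fold upwards.

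Promoters were compared because XAB2 and SART1 had the largest decreases. RefSeq promoter windows (GRCh38.p14, 250 bases before to 50 after a start) were found for 54 of the 59 genes, 64 windows in all. Shown are the 2 genes with the largest decreases and the 2 with the largest increases among those with a single window. Capitals mark a CCAAT box, a GC box spelled GGGCGG or a TATA box spelled TATAAA, on either strand, and adjoining matches run together.

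XAB2, chr19:7629496-7629795, - strand: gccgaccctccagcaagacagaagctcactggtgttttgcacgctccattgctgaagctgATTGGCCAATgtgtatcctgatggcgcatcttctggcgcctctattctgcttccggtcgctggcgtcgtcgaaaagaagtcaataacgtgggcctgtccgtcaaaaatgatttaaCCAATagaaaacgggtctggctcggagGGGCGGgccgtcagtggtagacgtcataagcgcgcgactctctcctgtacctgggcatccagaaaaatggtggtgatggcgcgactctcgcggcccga
SART1, chr11:65961484-65961783, + strand: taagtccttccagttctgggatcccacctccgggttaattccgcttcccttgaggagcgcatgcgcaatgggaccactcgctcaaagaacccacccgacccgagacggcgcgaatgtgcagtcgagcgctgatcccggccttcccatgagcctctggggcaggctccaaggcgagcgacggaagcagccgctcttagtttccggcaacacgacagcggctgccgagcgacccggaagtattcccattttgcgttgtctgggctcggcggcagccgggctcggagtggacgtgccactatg
PRPF38A, chr1:52404352-52404651, + strand: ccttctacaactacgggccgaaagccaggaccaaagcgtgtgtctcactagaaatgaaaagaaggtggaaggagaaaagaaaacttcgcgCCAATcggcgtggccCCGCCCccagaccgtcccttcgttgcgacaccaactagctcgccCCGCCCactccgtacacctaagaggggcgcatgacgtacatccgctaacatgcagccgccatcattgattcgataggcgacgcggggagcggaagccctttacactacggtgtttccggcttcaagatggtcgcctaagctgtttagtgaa
SF1, chr11:64778493-64778792, - strand: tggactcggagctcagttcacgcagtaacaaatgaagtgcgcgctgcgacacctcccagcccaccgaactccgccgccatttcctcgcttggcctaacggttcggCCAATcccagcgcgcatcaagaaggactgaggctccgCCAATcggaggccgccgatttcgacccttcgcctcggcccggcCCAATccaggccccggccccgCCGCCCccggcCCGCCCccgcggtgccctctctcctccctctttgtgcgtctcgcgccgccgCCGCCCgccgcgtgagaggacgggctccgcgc

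XAB2 held 3 CCAAT and 1 GGGCGG match, and SART1 held none of the motifs. SF1 held 3 CCAAT and 3 GGGCGG matches and PRPF38A 1 and 2. CCAAT was in 35.9% of the windows of the 59 genes and in 34.7% of those of all protein-coding genes tested. For GGGCGG the shares were 65.6% and 64.6%, and for TATAAA 4.69% and 6.67%. The median GC content of the windows was 63.0% for genes that fell and 60.35% for those that rose, beside 64.3% for all protein-coding genes tested.

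Overlapping genes limit some of these levels. Of the 59 genes, 25 overlap another tested gene in the annotation, 5 on the same strand and 21 on the opposite strand, and whether counting used the strand is not given in the sources used here. Among those named above, for instance, PRPF38A overlaps TUT4, whose count in DMSO was 92.9% of its own. BUD31 overlaps PDAP1, at 260% and a log2 fold change of -1.23. SNW1 overlaps SLIRP on the opposite strand, at 59.1% and 0.20. DDX46 overlaps C5orf24 on the same strand, at 48.3% and 0.40, where stranded counting would not separate the shared bases. XAB2, SART1, DDX23 and SNRNP200 overlap no other tested gene.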

How the data were processed

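HCT116 RNA was sequenced in 3 auxin and 3 DMSO libraries. Per the labels' protocols, ribosomal RNA was depleted and a stranded paired-end kit was used. The submitters' processing notes name bcl2fastq 2.20, STAR and DESeq2 and the build GRCh38, with no role. Per the file headers, the authors deposited an expected count (an estimated read number, not normalized), its posterior SD and a TPM per gene and per transcript. The counter and strand use are not given in the sources used here.

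Symbols and gene models came from GENCODE 29, which held all 58780 human gene IDs and 206761 transcript IDs. The 649 numeric IDs and 97 control sequences (all at 0) were left out. Expected counts were rounded, filtered with filterByExpr and tested in edgeR 4.0.16 (R 4.3.3, TMM, glmQLFTest); standard errors came from the F statistic. Shares were tested as the arcsine of the square root with limma 3.58.1 (trend, robust). P-values were adjusted by Benjamini-Hochberg over all features tested. Both procedures were run on simulated data with far fewer changed features than were called here. Those runs therefore do not check the calls above. DESeq2 1.42.0 was an alternative. Libraries of a group differed by more than sampling noise (chi-square per degree of freedom 34.8 to 527.7), so each counted as 1 replicate. Labels call them biological replicates; p-values measure only the spread between them.

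Replicate numbers are shared between groups. Deviations from the group means correlated within each number (0.65, 0.27 and 0.28). Across numbers, auxin 2 with DMSO 3 gave 0.31 and auxin 3 with DMSO 2 gave 0.18. Replicate 1 with any other number gave -0.47 to -0.36. The data thus set number 1 apart but could not tell how numbers 2 and 3 pair. The numbers were used as a block on this basis, and no label names a shared batch. The blocked value stands beside a result whose call it changes.

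Genes with values in every library are those called with a 2-fold change and the largest and smallest log2 fold change of each subcomplex. Per list of other genes, the largest and smallest called are named. The members, lists and tests were chosen with earlier results of these data known.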

Additional observations from a re-analysis of the deposited data

How the results depend on the processing

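The calls of the 59 genes were recomputed under 18 alternatives. On TPM values, log2(TPM + 1) left 0 genes higher and 11 lower, and log2(TPM + 0.1) left 0 higher. The replicate block gave 26 genes higher. Leaving out 1 library gave 7 to 18 higher calls. GC offsets, without and with the replicate block, put 2 genes at 2-fold or more higher (SF1 and SNRNP70), where there had been 0. The direction of 25 of the 59 genes turned in at least 1 alternative, 3 of them called genes (SNRPA, AQR and DHX38). Among the genes with values given for every library, 3 turned. SNRPG was at 0.0232 with upper-quartile factors, and between -0.26 and 0.0032 with 1 library left out, the upper value without DMSO replicate 3. SNRPA was at 0.14 with GC offsets and at 0.14 with GC offsets and block, where it was called higher (edgeR adjusted p = 0.00814). SNRNP40 was at -0.0233 with GC offsets and at -0.0229 with the block added. Genes with a changed transcript numbered 6, 3 with replicates 2 and 3 alone, and 2 to 3 with 1 library left out. Genes with a higher non-coding share numbered 2, 4 with the replicate block and 0 to 3 with 1 library left out. The replicate block changed no call other than those given beside the results. Of the other values recomputed, 82 counts stayed within a fixed fold range of the count first given, so they could still differ from it. For single genes or transcripts, 368 values kept direction and side of the threshold, 81 fell below it and 15 rose past it. The cause of these changes was not tested. U2AF1 gave the same result when summed with U2AF1L5. All 59 genes had enough reads to be tested.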
